A study of Homo sapiens
Mus musculus and Homo sapiens and Mus musculus with 7 samples.

Results

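The 5 genes described here are the human long noncoding RNAs MALAT1 and NEAT1, their mouse counterparts Malat1 and Neat1, and a mouse chromosome 17 gene, ENSMUSG00000097971, out of 113473 genes counted (58721 human, 54752 mouse). They were taken by name and identifier, by a rule that used no measured value, though earlier results of these data were known. RNA came from a co-culture of HEK293 cells, a human embryonic kidney line, expressing RPL22-HA, and NIH3T3 cells, a mouse fibroblast line, expressing RPL22-V5. RPL22 is a protein of the large ribosomal subunit, so an antibody to either tag precipitates ribosomes of 1 of the lines together with bound RNA. The groups were 2 HA IPs (immunoprecipitates, aimed at HEK293) and 2 V5 IPs (aimed at NIH3T3), each pair made of a first and a second IP, and single libraries of co-culture input, HEK293 monoculture and NIH3T3 monoculture. Both first IPs came from the lysate labelled Sample 1, the second HA IP from Sample 5 lysate and the second V5 IP from Sample 4 lysate. The labels do not say how these lysates relate or whether the monocultures carried tags.

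MALAT1 is a nuclear RNA that gathers in nuclear speckles, bodies rich in splicing factors. NEAT1 is the scaffold of paraspeckles, another nuclear body. Both are made in very many cell types, are not known to be templates for long proteins, and stay largely in the nucleus, while translating ribosomes are in the cytoplasm. The identity of ENSMUSG00000097971 as a ribosomal RNA locus transcript could not be checked against an annotation here, so it is called by its identifier.

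The human pair shares an unusual 3′ end, shown because it sets the transcripts that carry it apart from ordinary polyadenylated RNAs. It is shown from an annotated transcript of each gene. Any shorter NEAT1 transcripts that end elsewhere would lack it and were not examined. RNase P cuts the precursor in front of a small tRNA-like RNA, and the new end is protected by a triple helix between U-rich motifs and an A-rich tract. The annotation holds a small RNA gene named RF01684 (the Rfam family of these tRNA-like RNAs) directly after both ends. In the MALAT1 and NEAT1 sequences, capitals mark matches to TTNCTTTT and the A-rich tract, read on the RNA strand only; all are from GENCODE 29 transcripts on hg38, plus strand, written as DNA.
MALAT1 end, chr11:65505997-65506116: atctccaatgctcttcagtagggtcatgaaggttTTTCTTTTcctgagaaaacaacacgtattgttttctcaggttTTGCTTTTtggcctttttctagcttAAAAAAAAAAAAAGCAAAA
RF01684 after MALAT1, chr11:65506117-65506173: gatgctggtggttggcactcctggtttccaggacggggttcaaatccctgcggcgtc
NEAT1 end, chr11:65445421-65445540: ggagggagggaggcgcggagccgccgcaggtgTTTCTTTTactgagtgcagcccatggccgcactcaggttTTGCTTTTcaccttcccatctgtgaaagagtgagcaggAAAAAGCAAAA
RF01684 after NEAT1, chr11:65445541-65445598: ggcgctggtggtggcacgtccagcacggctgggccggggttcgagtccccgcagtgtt

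Each end held 2 matches to the U-rich motif, and the A-rich tract touched the small RNA gene in both. The tract was 19 bases long in MALAT1, 17 of them A, and 11 bases in NEAT1, 9 of them A. Among the last 120 bases of 200764 annotated transcripts, 0.209% held at least 2 matches to TTNCTTTT and 0.0553% held AAAAAGCAAAA. Both patterns are ones that these ends hold, so the shares say how common they were and test nothing. The annotated MALAT1 transcript ran 353 bases beyond its window, so the small RNA gene lay inside it. For that transcript, the window shown was therefore not the stretch of last bases that was counted. The small RNA genes matched each other in 40 of 59 aligned columns (67.8%), and both had 0 counts in every library. For the gene inside MALAT1 this need not mean that no reads fell there, since its bases are shared with MALAT1.

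MALAT1 (ENSG00000251562.8) lies on hg38 chromosome 11, 65497688 to 65506516, and NEAT1 (ENSG00000245532.8) at 65422774 to 65445540, both annotated as lincRNA on the plus strand. The files place Malat1 (ENSMUSG00000092341.2) on mouse chromosome 19, 5795690 to 5802672, and Neat1 (ENSMUSG00000092274.3) at 5824708 to 5845478, both on the minus strand, and ENSMUSG00000097971.3 on chromosome 17, 39843013 to 39846341, plus strand. Mouse coordinates are as deposited, on a build not given in the sources used here. Counting used no strand, and exons of other genes covered 6.21% of MALAT1, 2.13% of NEAT1, 13.8% of Malat1, 1.85% of Neat1 and 0% of ENSMUSG00000097971. The overlapping genes had 0 counts in all 7 libraries. How reads in bases shared by 2 genes were counted was not examined. If they were left out of both genes, these would be 0 in any case, so the shared bases may still have held reads.

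The libraries held 826781 to 2063885 gene counts. Human genes made up 82.1% and 77.6% of the HA IP counts, 6.25% and 4.48% of the V5 IP counts and 26.9% of the input. Levels are therefore given as CPM, counts per 1e6 counts of the gene's own species, which rest on as few as 81798 human counts in the second V5 IP. As to cell identity, the epithelial keratin KRT18 was at 195 CPM in HEK293 cells but its partner KRT8 at only 8.47 CPM (7 counts), and the fibroblast collagen genes COL1A1, COL1A2 and COL3A1 had 1 human count there in all, while mouse markers were not looked up, since the mouse identifiers had no symbols. In bulk RNA, fewer cells of a line and less RNA per cell cannot be told apart.

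MALAT1 was the most abundant human member, and its level in the HA IPs was far under that of HEK293 cells alone. The HA IPs held MALAT1 at 311 and 423 CPM (227 and 513 counts), against 1001 and 1602 CPM for the V5 IPs (129 and 131 counts), 221 CPM for the input (62 counts) and 2906 CPM for the HEK293 monoculture (2402 counts). The order was monoculture, V5 IPs, HA IPs, input, and the ranges of the HA and V5 IPs did not overlap. The HA mean was 367 ± 79.0 CPM and the V5 mean 1301 ± 425 CPM (SD, n = 2 each).

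Against the HEK293 monoculture, MALAT1 was lower in the HA IPs (log2 difference -2.95, SE 0.52; edgeR quasi-likelihood test with Benjamini-Hochberg adjustment, adjusted p = 6.28e-06). It was the only human member called there, 1 of 2, where 0.32% of the 6244 human genes tested were called lower. The call held without each IP in turn. Against the input, MALAT1 in the HA IPs differed by 0.59 (SE 0.57; edgeR adjusted p = 0.853), where the median over all human genes was 0.38, and the sign turned to -0.36 once the trend with GC content was removed. Here 0 of 2 human members were called by edgeR, 0 at an unadjusted p under 0.05 and 0 by DESeq2, which gave NEAT1 no adjusted p, beside 0.625% of human genes by edgeR.

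MALAT1 took a larger share of human counts in both V5 IPs, which were aimed at the other line, than in either HA IP, a difference that edgeR did not call. In HA against V5 IPs the log2 difference was -1.40 (SE 0.45; edgeR adjusted p = 0.201), a direction opposite to the median of all human genes at 0.37. In V5 IPs against input it was 1.98 (SE 0.61; edgeR adjusted p = 0.0927), where the median was 0. Neither passed the threshold, so 0 of 2 human members were called in either comparison, beside 0.368% of human genes in HA against V5 and 0.753% in V5 against input. At an unadjusted p under 0.05, MALAT1 alone counted in each, as did 11.2% of all human genes in HA against V5 and 12.9% in V5 against input. DESeq2's Wald test called it in both, at -1.75 in HA against V5 (adjusted p = 0.0151; 0.464% of genes called) and 2.10 in V5 against input (adjusted p = 0.0121; 0.977% called). With edgeR, MALAT1 in HA against V5 IPs passed without the second HA IP (-1.91, adjusted p = 0.00538), and in V5 IPs against input without the first (adjusted p = 0.00183) or the second HA IP (adjusted p = 0.00210). Mitochondrial transcripts also took more of the human counts in the V5 IPs: they were 0.354% and 0.466% of the HA IPs' human counts and 2.28% and 3.54% of the V5 IPs', and their part in the MALAT1 difference was not tested.

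**Figure D1:**
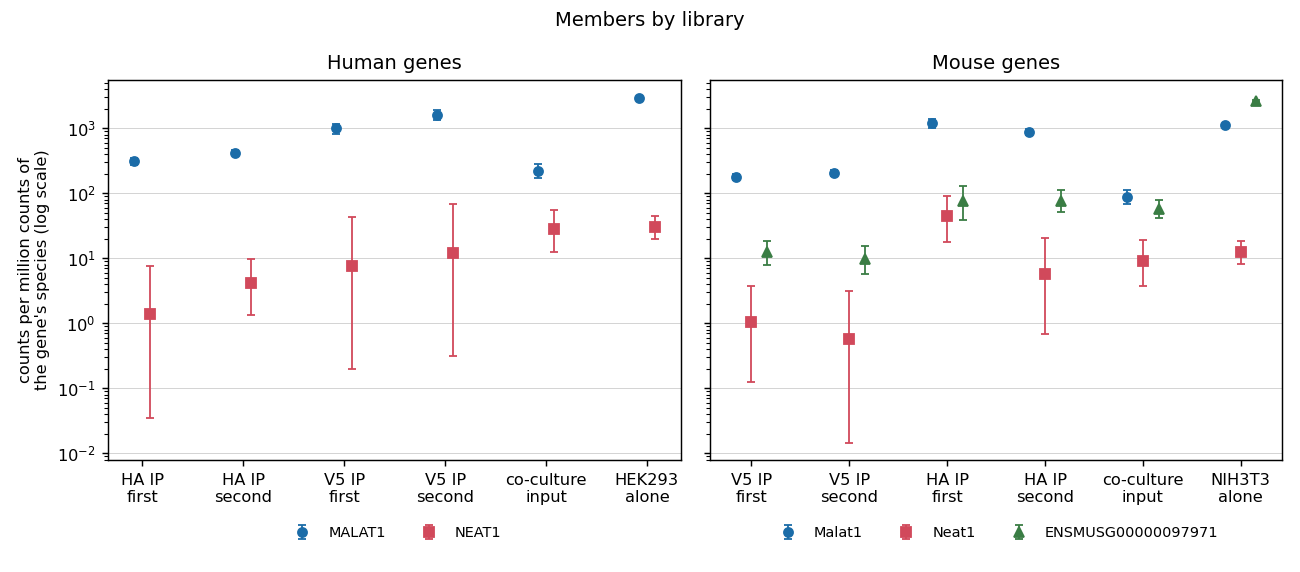
Counts per 1e6 counts of the gene's own species (log scale) for the human members (left) and the mouse members (right) in each library that holds that species. Bars are exact 95% intervals for counting error. MALAT1 was highest in the HEK293 monoculture (2906 CPM), and ENSMUSG00000097971 was at 2658 CPM in the NIH3T3 monoculture and at or below 77.1 CPM in all 5 co-culture libraries.

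Mouse Malat1 had the same layout with the antibodies exchanged: low in the IPs aimed at its own line and high in the others. The V5 IPs held Malat1 at 176 and 203 CPM (341 and 354 counts), against 1192 and 880 CPM for the HA IPs (189 and 308 counts), 89.5 CPM for the input (68 counts) and 1131 CPM for the NIH3T3 monoculture (2261 counts). The V5 mean was 190 ± 18.9 CPM and the HA mean 1036 ± 221 CPM (SD, n = 2 each). The HA IPs lay on either side of the monoculture, and the V5 IPs were under both and above the input.

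Malat1 was lower in V5 than in HA IPs (log2 difference -2.21, SE 0.37; edgeR adjusted p = 0.00138), and lower in V5 IPs than in the NIH3T3 monoculture (log2 difference -2.63, SE 0.42; edgeR adjusted p = 0.000753). It was higher in HA IPs than in the input (log2 difference 3.03, SE 0.52; edgeR adjusted p = 0.00292). V5 IPs against input gave 0.82 (SE 0.47; edgeR adjusted p = 0.658), not past the threshold. Of the 3 mouse members, 2 were called lower in V5 against HA IPs, beside 0.243% of the 8221 mouse genes tested, and 2 were called lower in V5 IPs against the monoculture, beside 0.353%. Malat1 was the 1 of 3 called higher in HA IPs against input, beside 0.535% of mouse genes.

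The calls of Malat1 in V5 IPs against HA IPs and the monoculture were lost without either V5 IP, while the log2 differences stayed between -2.75 and -2.10. Such a fit takes its spread from the HA pair alone and called very few mouse genes of any kind, so the loss is not particular to Malat1. The HA against input call held without each IP, and was lost when only the groups compared were fitted (log2 difference 3.21, adjusted p = 0.388). Malat1 in V5 IPs against input passed without the first HA IP (0.83), in a fit that called far more mouse genes than the fit with all IPs. Mitochondrial transcripts were 0.222% and 0.234% of mouse counts in the V5 IPs, against 2.22% and 2.02% for the HA IPs, 1.97% for the input and 2.97% for NIH3T3, and their part in these differences was not tested.

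Set against all counts of both species, Malat1 was at a similar level whichever antibody was used. Per 1e6 counts of both species, the V5 IPs held 165 and 194 Malat1 counts, the HA IPs 213 and 197 and the input 65.4. For MALAT1 the HA IPs held 256 and 328, the V5 IPs 62.5 and 71.7 and the input 59.6. On that scale the V5 IPs held about as much MALAT1 as the unprecipitated co-culture, and all 4 IPs held more Malat1 than the input did.

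The species of origin was read from MALAT1 and Malat1 together. MALAT1 made up 54.6% of their joint counts in the first HA IP (exact Clopper-Pearson 95% interval 49.6 to 59.4%) and 62.5% in the second (59.1 to 65.8%). For the V5 IPs the share was 27.4% (23.5 to 31.7%) and 27.0% (23.1 to 31.2%), and for the input 47.7% (38.9 to 56.6%). In the NIH3T3 monoculture it was 2 of 2263 counts (0.0884%), so few NIH3T3 reads were counted as human MALAT1.

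The antibodies shifted this pair of RNAs less than the genes as a whole. The odds of a count from the matching species were 1.32 and 1.83 times those of the input for the pair in the HA IPs, beside 12.5 and 9.39 times for all genes. For the V5 IPs these odds were 2.41 and 2.46 times those of the input for the pair, beside 5.54 and 7.86 times for all genes. The human share of the pair averaged 58.5% ± 5.60 for HA and 27.2% ± 0.309 for V5 IPs (SD, n = 2 each), a difference of 31.3 percentage points. An exact permutation test (two-sided) of that difference returned p = 0.333, below which the 6 assignments of these libraries cannot go.

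**Figure D2:**
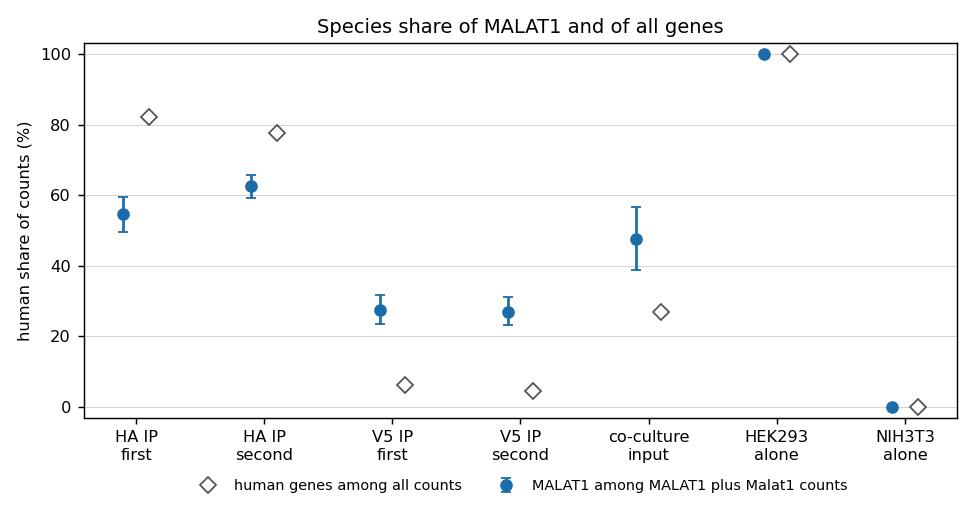
Share of human counts (%) in each library, for MALAT1 among the joint counts of MALAT1 and Malat1 (filled, with exact 95% intervals) and for all genes (open). In the HA IPs the MALAT1 share (54.6% and 62.5%) lay below that of all genes (82.1% and 77.6%), and in the V5 IPs (27.4% and 27.0%) above it (6.25% and 4.48%).

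NEAT1 was a rare RNA in every library, and no test separated its groups. The HA IPs held it at 1.37 and 4.12 CPM (1 and 5 counts), against 7.76 and 12.2 CPM for the V5 IPs (1 count each), 28.6 CPM for the input (8 counts) and 30.2 CPM for the HEK293 monoculture (25 counts). Both HA IPs were under both V5 IPs, and all IPs were under the input and the monoculture. At the depth of the V5 IPs, however, 1 human count alone lay above both HA levels. The counting intervals of the V5 IPs (0.196 to 43.2 and 0.310 to 68.1 CPM) spanned the levels of all other libraries. The place of the V5 IPs in this order therefore cannot be read as a difference. The mean was 2.75 ± 1.95 CPM in HA IPs and 9.99 ± 3.16 CPM in V5 IPs (SD, n = 2 each).

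The pooled HA counts of NEAT1 were 0.108 of the input level (95% interval of the ratio 0.0309 to 0.355, counting error only) and 0.102 of the monoculture level (0.0343 to 0.255). The pooled V5 counts, 2 in all, were 0.332 of the input level (0.0344 to 1.67). The fitted log2 differences were -3.32 in HA IPs against input (SE 1.73; edgeR adjusted p = 0.573) and -3.22 against the monoculture (SE 1.64; edgeR adjusted p = 1.000). HA against V5 IPs gave -1.23 (SE 1.94; edgeR adjusted p = 0.843) and V5 IPs against input -2.09 (SE 1.998; edgeR adjusted p = 0.664). The counting intervals leave out the spread between IPs, which the edgeR fit includes.

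Neat1 was lowest in the V5 IPs, on 3 counts in all. The V5 IPs held it at 1.03 and 0.573 CPM (2 and 1 counts), against 44.1 and 5.71 CPM for the HA IPs (7 and 2 counts), 9.21 CPM for the input (7 counts) and 12.5 CPM for the NIH3T3 monoculture (25 counts). The V5 IPs were under every other library, while the HA IPs lay on either side of input and monoculture. The mean was 0.803 ± 0.325 CPM in V5 IPs and 24.9 ± 27.2 CPM in HA IPs (SD, n = 2 each).

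The pooled V5 level of Neat1 was 0.0885 of the input level (counting interval 0.0148 to 0.388), 0.0652 of the monoculture level (0.0126 to 0.214) and 0.0461 of the HA level (0.00803 to 0.185). The fit gave -3.60 in V5 IPs against input (SE 1.64; edgeR adjusted p = 0.471), -3.83 against the monoculture (SE 1.53; edgeR adjusted p = 0.570) and -4.32 against HA IPs (SE 1.52; edgeR adjusted p = 0.449). None passed the threshold. Without the second HA IP all 3 did, in a fit that called far more mouse genes of every kind than the fit with all IPs. Leaving out each IP in turn gave -4.01 to -3.28 against the input, -4.20 to -3.51 against the monoculture and -5.18 to -2.64 against HA IPs. HA IPs against input gave 0.72 (SE 1.61; edgeR adjusted p = 0.873), which turned to -0.96 when the first HA IP was left out.

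Per kilobase of exon, NEAT1 was scarce beside MALAT1 in IPs and monocultures, and less so in the input. NEAT1 CPM per kilobase was 0.171% and 0.378% of that of MALAT1 in the HA IPs, 0.301% and 0.296% for the V5 IPs, 5.00% for the input and 0.404% for the HEK293 monoculture. Neat1 was at 0.197% and 0.0950% of Malat1 in the V5 IPs, 1.25% and 0.218% for the HA IPs, 3.46% for the input and 0.372% for the NIH3T3 monoculture. The input was the highest of the libraries for both species, on 8 NEAT1 and 7 Neat1 counts. Lengths were those of all annotated exons, 22.8 kb for NEAT1 and 20.8 kb for Neat1. Transcripts of different length were not told apart, and if shorter ones prevailed these percentages would be too low.

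**Figure D3:**
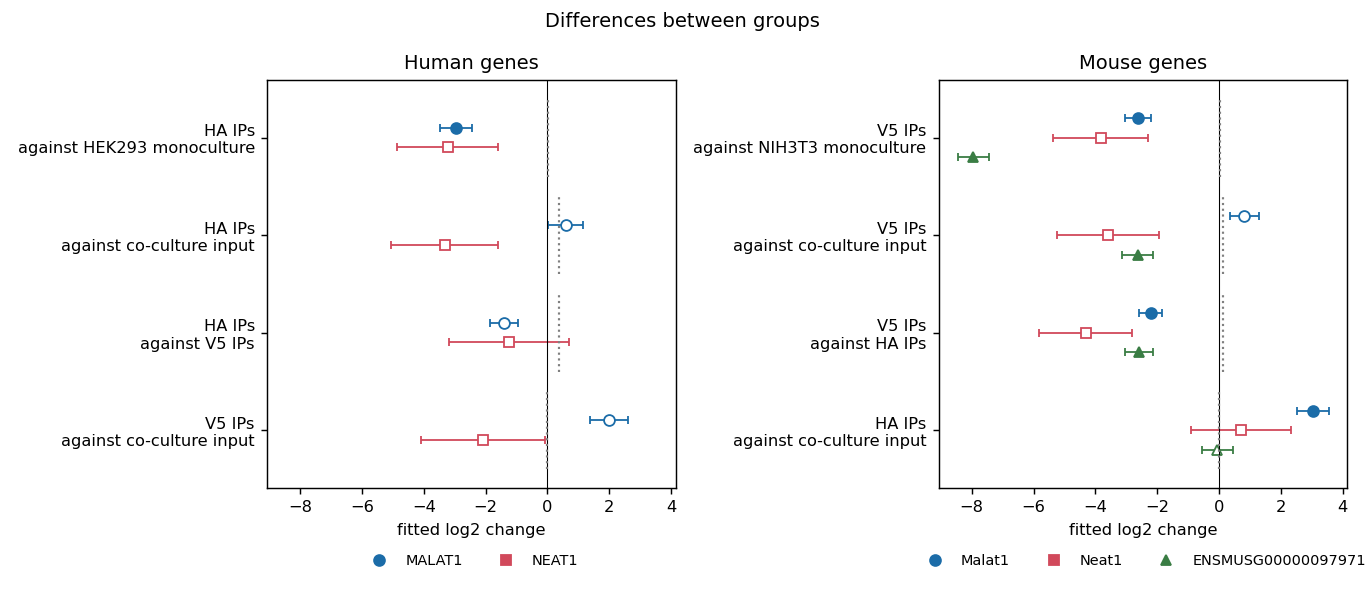
Fitted log2 change with its standard error (edgeR) for each member in each comparison, first-named group over the second. Filled symbols passed an adjusted p of 0.05, open ones did not, and dotted lines are medians over all genes tested. ENSMUSG00000097971 in V5 IPs against the NIH3T3 monoculture (-7.95) stood farthest from 0.

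ENSMUSG00000097971 was the most abundant member in NIH3T3 cells alone and far scarcer in every co-culture library. The V5 IPs held it at 12.4 and 9.75 CPM (24 and 17 counts), against 75.7 and 77.1 CPM for the HA IPs (12 and 27 counts), 57.9 CPM for the input (44 counts) and 2658 CPM for the NIH3T3 monoculture (5313 counts). The V5 IPs lay under all other libraries, and the HA IPs were close to the input. The mean was 11.1 ± 1.88 CPM in V5 IPs and 76.4 ± 1.01 CPM in HA IPs (SD, n = 2 each). Per kilobase of exon it reached 799 CPM in the monoculture, where Malat1 was at 162 CPM.

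The log2 difference of ENSMUSG00000097971 in V5 IPs against the NIH3T3 monoculture was -7.95 (SE 0.51; edgeR adjusted p = 1.20e-11), the lowest of the 8221 mouse genes tested, and this call held under every alternative run, including without each IP. It was also lower in V5 IPs than in the input (log2 difference -2.63, SE 0.50; edgeR adjusted p = 0.00416) and lower than in HA IPs (log2 difference -2.58, SE 0.46; edgeR adjusted p = 0.00251). It was the 1 of 3 mouse members called lower in V5 IPs against input, beside 0.499% of mouse genes. HA IPs against input gave -0.05 (SE 0.51; edgeR adjusted p = 0.981), a value whose sign turned to 0.40 when libraries were scaled by total counts.

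As with Malat1, these smaller differences of ENSMUSG00000097971 were no longer called without either V5 IP, in fits that called very few mouse genes of any kind. The log2 differences in these fits were between -2.83 and -2.48. The call against HA IPs was also lost when only the groups compared were fitted (-2.70, adjusted p = 0.376).

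A gene whose model begins 12 bases beyond the end of ENSMUSG00000097971, on the opposite strand, had the same order of the co-culture groups over a narrower range, and a monoculture level close to its input. ENSMUSG00000106106 (chromosome 17, 39846353 to 39848827) had 556 and 657 CPM in the V5 IPs, against 1261 and 1334 CPM for the HA IPs, 828 CPM for the input and 884 CPM for the NIH3T3 monoculture. Its input level was 0.937 of the monoculture level (counting interval 0.854 to 1.03), against 0.0218 for ENSMUSG00000097971 (0.0158 to 0.0293). Its log2 difference was -0.60 in V5 IPs against the monoculture (SE 0.43; edgeR adjusted p = 0.998), -0.89 against HA IPs (SE 0.36; edgeR adjusted p = 0.520) and -0.71 against the input (SE 0.43; edgeR adjusted p = 0.695), none past the threshold. Since counting used no strand, reads beyond the annotated ends of these adjacent genes cannot be told apart.

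**Figure D4:**
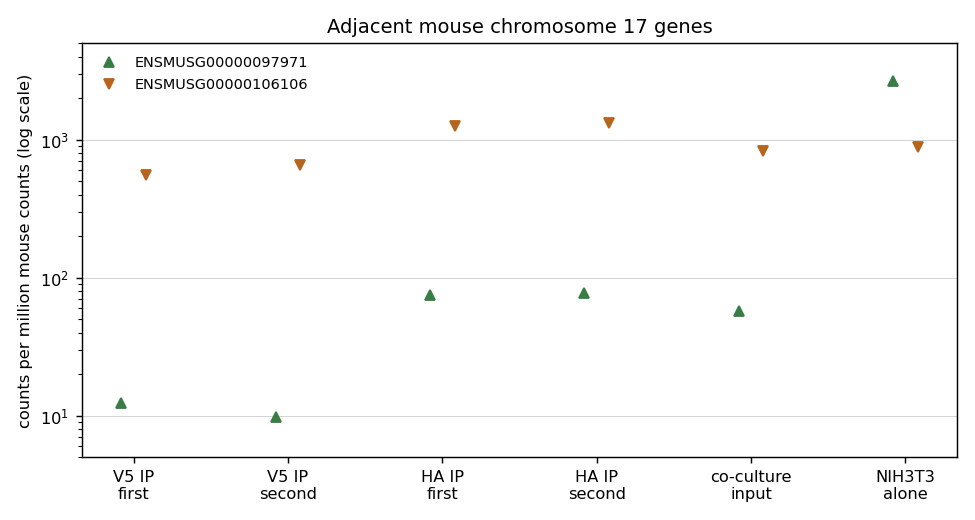
Counts per 1e6 mouse counts (log scale) of the adjacent chromosome 17 genes in each library that holds mouse RNA. ENSMUSG00000106106 stayed between 556 and 1334 CPM, while ENSMUSG00000097971 was at 2658 CPM in the NIH3T3 monoculture and between 9.75 and 77.1 CPM elsewhere.

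The co-culture input was set against each monoculture, 1 library against 1, with no test. MALAT1, Malat1 and ENSMUSG00000097971 were all far lower in the input than in the line grown alone. MALAT1 was 13.1-fold lower (counting interval 10.2 to 17.2), Malat1 12.6-fold lower (9.93 to 16.3) and ENSMUSG00000097971 45.9-fold lower (34.1 to 63.2). The median gene differed by -0.31 (human) and -0.16 (mouse) on the log2 scale.

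MALAT1 was 48th lowest of 2558 human genes that reached 50 CPM in the input or the monoculture, while Malat1 was 5th and ENSMUSG00000097971 1st of 2475 mouse genes. A difference of at least 4-fold toward the monoculture was found for 15.8% of those human genes and 4.97% of those mouse genes. NEAT1 and Neat1 had no such difference: the input held 0.944 of the HEK293 level of NEAT1 (0.368 to 2.16) and 0.737 of the NIH3T3 level of Neat1 (0.269 to 1.75). The input also had a lower mitochondrial share, 5.58% of human counts against 8.35% in HEK293 and 1.97% of mouse counts against 2.97% in NIH3T3. Preparation of the input and of the monocultures cannot be told apart from the culture itself, since each was 1 library.

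Expressed genes nearest to the members were set beside them. FRMD8 and SLC25A45, the nearest to NEAT1, had at most 39 and 9 counts in any library, and neither passed the test in any comparison. Mouse neighbours are given as CPM, since the V5 IPs held 1934970 and 1744329 mouse counts and the HA IPs 158572 and 350176. ENSMUSG00000024941, next to Malat1, had 14.99 and 29.81 CPM in the V5 IPs (29 and 52 counts). The HA IPs held it at 31.53 and 19.99 CPM (5 and 7 counts), the input at 25.01 CPM (19 counts) and NIH3T3 at 36.03 CPM (72 counts). Its log2 difference in V5 against HA IPs was 0.07. It passed the test in none of the 4 mouse comparisons (edgeR adjusted p of 0.852 or more). ENSMUSG00000024816, next to Neat1, had 0 counts in both HA IPs, against 17.57 and 13.76 CPM in the V5 IPs (34 and 24 counts). It did not pass the test (V5 against HA, edgeR adjusted p = 0.468). ENSMUSG00000054951, the other gene near ENSMUSG00000097971, had 12.4 and 2.87 CPM in the V5 IPs (24 and 5 counts), against 0 for both HA IPs. It did not pass the test either (V5 against HA, edgeR adjusted p = 0.616).

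Other human nuclear noncoding RNAs were mostly too rare to follow. Of 19 genes on that list, 3 passed the filter on low counts and 0 were called in any of the 4 human comparisons by edgeR or by DESeq2, with at most 1 at an unadjusted p under 0.05, beside 3.83% to 12.9% of all human genes. JPX, a noncoding RNA of the X inactivation centre, had 19.2 and 35.4 CPM in the HA IPs, against 31.0 and 61.1 CPM for the V5 IPs, 32.1 CPM for the input and 20.6 CPM for HEK293. FTX, from the same region, had 5.48 and 6.59 CPM in the HA IPs, against 0 and 12.2 CPM for the V5 IPs, 10.7 CPM for the input and 24.2 CPM for HEK293, on at most 8 counts an IP. The median log2 difference of the 3 was -1.93 in HA IPs against HEK293, where that of all genes was 0.01. Of 8 cytoplasmic noncoding RNAs, 4 passed the filter and 0 were called by either tool, with a median of -1.63 there. Among them EPB41L4A-AS1 differed by 0.22 and DANCR by -0.69 from HEK293, neither past the threshold (edgeR adjusted p = 1.000 for each). NORAD (-2.57, on 1 and 3 counts in the HA IPs) and RN7SL2 (-3.44, on 2 and 2 counts) lay lower.

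Transcripts of proteins tied to these RNAs were measured far better, and edgeR called 0 in any human comparison. Of 31 paraspeckle proteins 29 were tested, of 26 nuclear speckle proteins 23, and of 12 proteins of RNase P, RNase Z or triple helix binding all 12. In HA IPs against HEK293 their median log2 differences were 0.01, -0.48 and -0.14, with 1 of each list at an unadjusted p under 0.05, beside 3.83% of all human genes. In HA against V5 IPs the medians were 0.72, 0.25 and 0.03, beside 0.37 for all genes, with 2, 2 and 1 at an unadjusted p under 0.05, beside 11.2% of all genes. In HA IPs against input the medians were 0.53, 0.93 and 0.11, beside 0.38 for all genes, with 5, 1 and 0 at that p, beside 8.86% of all genes. In V5 IPs against input they were 0.22, 0.65 and -0.22, beside 0, with 5, 3 and 1 at that p, beside 12.9%. DESeq2 called HNRNPH1 lower in HA IPs against HEK293 (-2.03, adjusted p = 0.0141) and HNRNPR higher than the input in HA IPs (3.24, adjusted p = 0.0199) and in V5 IPs (3.05, adjusted p = 0.0479), both of the paraspeckle list, and 0 of the others. Over all human genes it called 0.561% in HA IPs against HEK293, 1.31% in HA IPs against input and 0.977% in V5 IPs against input. Both HNRNPR calls were made against the same input library, where HNRNPR had 5 counts (17.8 CPM).

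HNRNPA1, a splicing regulator of the paraspeckle list, had 762 and 469 CPM in the HA IPs, against 504 and 306 CPM for the V5 IPs, 239 CPM for the input and 1205 CPM for HEK293. HNRNPH1, another splicing regulator of that list, had 543 and 223 CPM in the HA IPs, against 543 and 403 CPM for the V5 IPs, 221 CPM for the input and 1433 CPM for HEK293. SRSF3, a splicing factor of nuclear speckles, had 795 and 573 CPM in the HA IPs, against 434 and 746 CPM for the V5 IPs, 321 CPM for the input and 959 CPM for HEK293. POP7, a subunit of RNase P, had 850 and 1245 CPM in the HA IPs, against 838 and 428 CPM for the V5 IPs, 1078 CPM for the input and 502 CPM for HEK293. HNRNPA1, HNRNPH1 and SRSF3 were, like MALAT1, lowest in the input and highest in HEK293. For HNRNPA1 and SRSF3 the V5 IPs did not exceed the HA IPs on average. For HNRNPH1 they did, through the second IPs (403 CPM for V5 and 223 CPM for HA), while both first IPs were at 543 CPM. The human ribosomal RNA genes on the list that matched the files, 4 in all, had 0 counts in every library and were not tested.

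The genes whose levels followed each member most closely were sought over the 6 libraries that hold its species. For MALAT1 these were CTNNB1, the gene of beta-catenin (Pearson's r = 0.944 of log2 CPM), RPL24 (0.903) and RPL27 (0.903), among 2254 genes. CTNNB1 had 195 and 232 CPM in the HA IPs, against 527 and 697 CPM for the V5 IPs, 278 CPM for the input and 1528 CPM for HEK293. For NEAT1 they were RPL12 (0.995), MT-CYB (0.983) and MT-ATP8 (0.982). A high r does not mean a change of like size. RPL27 ran only from 2138 to 2684 CPM over these libraries, where MALAT1 ran from 221 to 2906 CPM. RPL12 ran from 3199 to 6064 CPM, where NEAT1 ran from 1.37 to 30.2 CPM. For the mouse members the closest were ENSMUSG00000052337 for Malat1 (0.976), ENSMUSG00000031328 for Neat1 (0.992) and ENSMUSG00000016554 for ENSMUSG00000097971 (0.974). Both first IPs share a lysate, the libraries differ in depth, and for NEAT1 and Neat1 the likeness rests on 1 to 25 counts a library, so the values are a description.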

How the data were processed

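The authors deposited whole-number counts of reads per gene for each library. Per the file headers, featureCounts 1.5.2 counted paired reads over exons without strand on a combined human and mouse annotation, and the submitters' processing notes name STAR 2.5.2 and hg38. Per the labels' protocols, SMART-seq cDNA went into Nextera DNA Flex libraries.

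From these counts, CPM was computed within a species with exact Clopper-Pearson 95% intervals, which cover counting error only. Tests across all genes of a species used edgeR 4.0.16 (quasi-likelihood, TMM factors, filterByExpr with counts of 10 and 15) in R 4.3.3, two-sided, Benjamini-Hochberg adjusted, threshold 0.05. Each fit held both IP pairs, the input and the monoculture, so the spread came from the IP pairs (2 residual degrees of freedom), may be technical, and was assumed to hold for single libraries. Input and monoculture were compared with a prior count of 2. DESeq2 1.42.0 was an alternative. The fits were tested on simulated data, for human HA IPs against input and mouse V5 IPs against input. Genes given a 16-fold difference were called in 40.7% (human) and 65% (mouse) of cases. With a 4-fold difference the shares were 15.3% and 15.9%, and a 2-fold difference was never called. False calls were 1 of 34 and 4 of 53. A gene that was not called may therefore still have differed.

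Members and lists were chosen with earlier results of these data known. Named genes were the members, the 3 genes most like each (at least 50 CPM), the 2 nearest expressed genes, overlapping genes, and called list genes or the 2 most abundant. A further gene that met this rule is not reported here.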

Additional observations from a re-analysis of the deposited data

How the results depend on the processing

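Of 223 re-estimated member differences, 191 kept their direction and their side of the threshold, 17 became calls, 10 stopped being calls and 5 turned round; the cause was not tested. In all alternatives run, MALAT1 in HA IPs against HEK293 and ENSMUSG00000097971 in V5 IPs against NIH3T3 stayed called. MALAT1 in HA against V5 IPs became a call with DESeq2 size factors (-1.75), the DESeq2 Wald test (-1.75), total counts (-1.82), at least 50 counts in 2 libraries (-1.99) and the GC trend removed (-1.94). In V5 IPs against input it became a call with DESeq2 size factors (2.10), the DESeq2 Wald test (2.10), total counts (2.55), only the groups compared (2.25) and a replicate block by IP order (1.96). MALAT1 in HA IPs against input turned to -0.36 with the GC trend removed. ENSMUSG00000097971 in HA IPs against input turned to 0.40 with total counts and 0.10 with only the groups compared, a fit that also ended its call against HA IPs (-2.70) and the call of Malat1 in HA IPs against input (3.21).

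The replicate block joined first IPs with first and second with second. The difference of first from second IPs correlated between HA and V5 across genes (r = 0.204 for human, 0.348 for mouse genes), but with 2 pairs, and second IPs from different lysates, order is only a number. The block changed no other member call.

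Leaving out each IP in turn moved MALAT1 between -1.91 and -1.04 in HA against V5 IPs and between 1.65 and 2.30 in V5 IPs against input. In HA IPs against input ENSMUSG00000097971 lay between -0.32 and 0.13 and Neat1 between -0.96 and 1.54. In V5 against HA IPs the ranges were -2.75 to -2.33 for ENSMUSG00000097971, -2.38 to -2.10 for Malat1 and -5.18 to -2.64 for Neat1. Against NIH3T3, V5 IPs gave -2.75 to -2.50 for Malat1 and -4.20 to -3.51 for Neat1. Against the input, V5 IPs gave -2.83 to -2.48 for ENSMUSG00000097971, 0.70 to 0.91 for Malat1 and -4.01 to -3.28 for Neat1. Malat1 there became a call without the first HA IP, in a fit that called far more mouse genes than the fit with all IPs. Without an IP, the remaining library of its pair was assumed to vary like the other pair.

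The number of genes called over a whole species moved more. Human calls in HA IPs against HEK293 were 23, with 35 by the DESeq2 Wald test, 48 with only the groups compared, 53 with total counts and 26 to 63 without 1 IP. In HA against V5 IPs they were 23, with 38 both after GC removal and with total counts, and 18 to 117 without 1 IP. In HA IPs against input they were 39, with 68 by DESeq2 size factors, 82 by the Wald test, 25 after GC removal, 260 with only the groups compared, 104 with total counts and 29 to 140 without 1 IP. In V5 IPs against input they were 47, with 7 at 50 counts, 72 by size factors, 18 after GC removal, 30 unfiltered, 71 with only the groups compared, 105 with total counts and 76 to 167 without 1 IP. Mouse calls in HA IPs against input were 134, with 30 at 50 counts, 0 with only the groups compared (347 at an unadjusted p under 0.05), 209 with the replicate block and 20 to 1381 without 1 IP. In V5 against HA IPs they were 22, with 13 at 50 counts, 12 with only the groups compared and 2 to 794 without 1 IP. In V5 IPs against NIH3T3 they were 31, with 11 at 50 counts, 65 unfiltered, 665 with only the groups compared, 59 with the block and 4 to 648 without 1 IP. Those in V5 IPs against input were 67, with 110 by the Wald test, 896 with only the groups compared, 117 with the block and 1 to 867 without 1 IP.

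Scaling by total counts moved the median of all genes to 0.00 in human HA against V5 IPs, to 0.53 in human V5 IPs against input and to 0.46 in mouse HA IPs against input. With that scaling, calls in mouse HA IPs against input were 80 higher and 33 lower, beside 44 and 90, in mouse V5 IPs against input 50 and 35, beside 26 and 41, in human HA IPs against HEK293 24 and 29, beside 3 and 20, in human HA IPs against input 65 and 39, beside 12 and 27, and in human V5 IPs against input 85 and 20, beside 16 and 31. Without members and mitochondrial genes in the total, MALAT1 was at 3181 CPM in HEK293 and ENSMUSG00000097971 at 78.1 CPM in HA and 2750.4 CPM in NIH3T3. Depth limits NEAT1 and Neat1, with 1 to 25 counts a library: neither passed the filter of 50 counts, NEAT1 missed the filter on low counts where an HA IP was left out, and DESeq2 gave an adjusted p for Neat1 in V5 IPs against NIH3T3 only. The GC trend was not removed for mouse genes, whose sequences were not used here.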
